A study of Rattus norvegicus with 6 samples.

Results

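The genes described here code for the machinery that copies DNA in S phase and for the regulators that admit a cell to it. They are 36 genes chosen by function: replication licensing, helicase activation, DNA polymerases, the sliding clamp and its partners, nucleotide supply, chromatin copying and G1/S control. On the array 33 of the 36 could be matched by accession, with 64 probes, out of 15645 genes that could be named. Mcm5, Uhrf1 and E2f8 had no named probe and were not analysed here. Orc1 was not well above background on any of the 6 arrays, and the other 32 genes were tested. The members were set by name, not by measured values.

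Total RNA was taken from renal cortex of 6 Sprague-Dawley (Crl:CD(SD)) rats, all male, bought at an age of 5 weeks and fed a basal diet. In the treated group, 3 rats were given p-nitroanisole, a nitrobenzene with a methoxy group, for 4 weeks at a daily dose of 500 mg/kg. The 3 vehicle rats were given corn oil over the same time. Each rat had 1 array of a 1-colour Agilent design. The tissue is bulk cortex, so fewer cells of a type and less RNA per cell cannot be told apart.

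A cell commits to division in G1, when cyclin D and cyclin E kinases release E2F transcription factors from retinoblastoma proteins, and E2F then switches on genes for replication. Origins are licensed when the origin recognition complex, Cdc6 and Cdt1 load the ring of Mcm2 to Mcm7, the replicative helicase, and geminin later blocks Cdt1 so that DNA is copied once. In the adult kidney most tubule cells are at rest, and proliferation is known mainly from repair after injury.

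Probe levels are given as the log2 processed intensity relative to the 75th percentile of the same array, so that 0 is the 75th percentile and each unit is a doubling. Levels of different probes are not comparable with each other, and differences are p-nitroanisole minus vehicle on this log2 scale. Each array had 61537 non-control probes, of which 66.43% to 69.23% were well above background, and no spot was saturated. All 9 proximal tubule markers (Slc34a1 and Lrp2 among them), the 3 tested thick limb and distal tubule markers (Umod among them) and all 4 podocyte markers were well above background on every array. The 3 vehicle arrays and treated replicates 1 and 2 lay on slide 1, and treated replicate 3 lay on slide 2. Of 32196 rows tested, 24 were called at a limma adjusted p under 0.05 (0.0745% of rows), 16 higher and 8 lower with treatment.

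Does treatment raise S phase genes? As a group, the replication genes were not uniformly higher. None of the 32 tested members was called by limma, with adjusted p from 0.0805 to 0.982. At an unadjusted p under 0.05, 11 members were higher and 1 was lower (34.4% and 3.12% of the 32), against 7.68% and 5.76% of all rows. With median scaling these members were 7 and 3, while all rows shifted too, from 2474 higher and 1853 lower to 1619 and 3100. At the same cutoff, leaving out single arrays gave 7 to 12 higher members. The count was 7 when vehicle replicate 2, vehicle replicate 3 or treated replicate 2 was left out. Of all rows 1958, 2017 and 2414 were then higher at that cutoff. In all, 22 members had higher and 10 had lower mean levels with treatment, with a median difference of 0.15 against 0.01 over all rows. With quantile scaling 20 and with median scaling 18 of the 32 were higher. In 12 members every treated rat lay above every vehicle rat, and in 3 every treated rat lay below, against 11.9% and 10.3% of all rows. The differences spanned -0.61 for Cdc6 to 1.23 for Rrm2, and 18 of the 32 were smaller than 1.2-fold in either direction. The largest were those of Rrm2, Cdt1, E2f1, Ccne1 and Tk1, which were higher, and of Cdc6, which was lower.

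**Figure D1:**
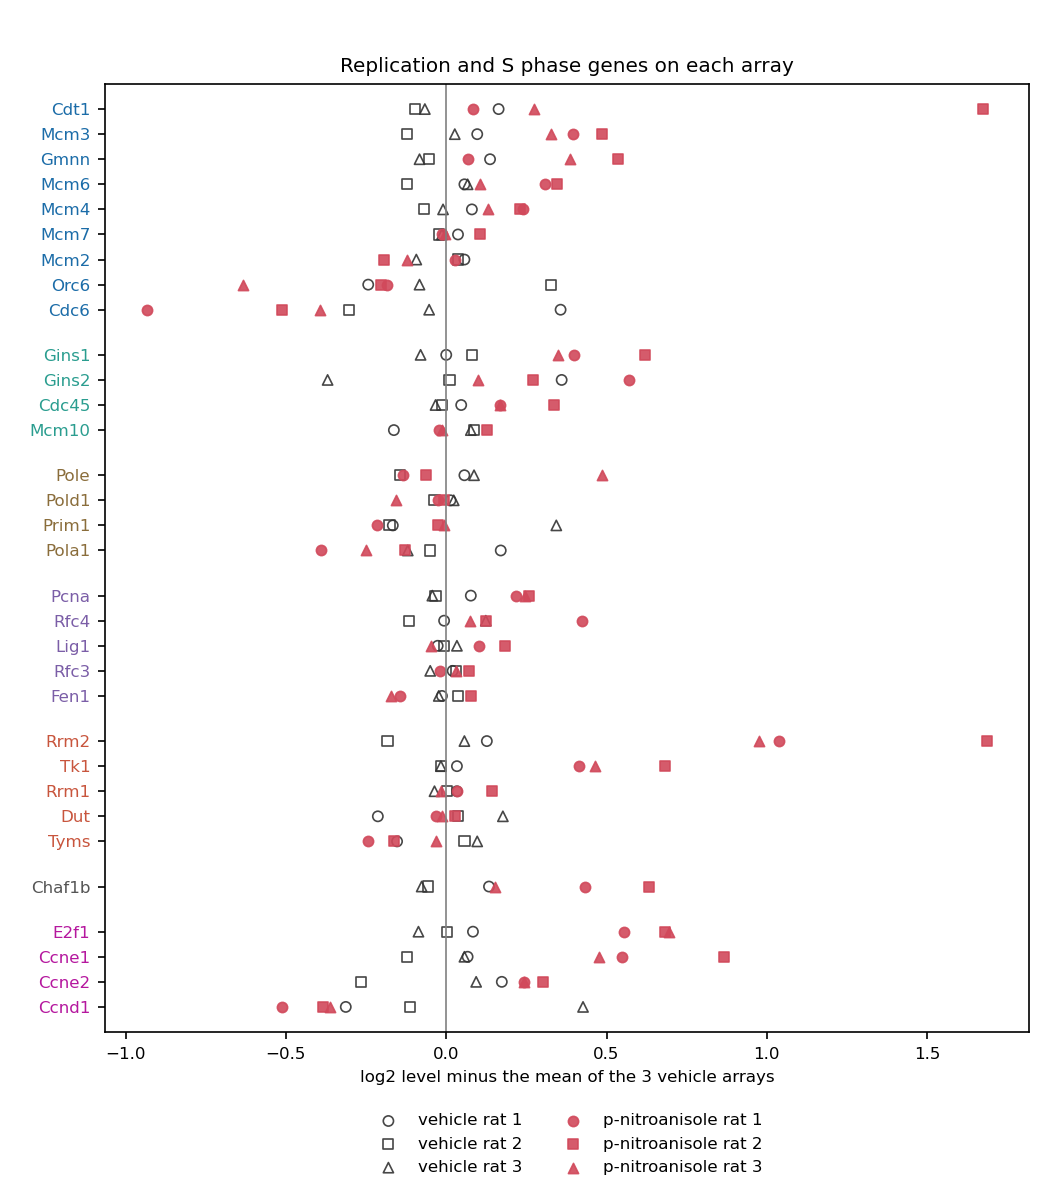
Level of each tested member on each array, minus the mean of the 3 vehicle arrays (log2, x axis), with genes in rows grouped and coloured by role. Open symbols are vehicle rats and filled symbols treated rats. Rrm2, Tk1, E2f1 and Ccne1 have all 3 treated rats to the right of the vehicle rats, Cdc6 has them to the left, and Mcm2, Mcm7, Rrm1 and Dut overlap.

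Promoters of these genes were set beside the expression values because E2F factors bind near the start of many replication genes. RefSeq's GRCr8 table held promoter windows, from 250 bases before to 50 after the start, for 28 of the 36 members. Rrm2, E2f1, Cdc6, Ccne2, Ccnd1, Mcm4, Orc1 and E2f8 had no window. The E2F letters searched, on both strands, were TTTGGCGC and the variants spelled TTTCGCGC, TTTCCCGC or TTTGCCGC. They were present in 14 of the 28 member genes and in 14 of their 31 windows (45.2%), against 2.14% of all 33469 windows of the same length. CCAAT was in 64.5% of member windows and 37.5% of all windows, and GGGCGG, the Sp1 box, in 71.0% and 33.1%. TTTGAA or TTCGAA, the cell cycle homology letters of many mitotic genes, was in 16.1% and 19.7%. Member windows were richer in G and C (median 60.0% against 51.7%), which also bears on how often such letters occur, and neighbouring matches can overlap. A match is a description of the sequence and not a measured binding site.

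The windows of 5 members are shown because they hold like or unlike letters beside unlike expression. Gins1 (chr3:160184670-160184969, plus strand) and Mcm3 (chr9:30733697-30733996, minus strand) hold the letters and had treated rats all above the vehicle rats. Mcm2 (chr4:122918045-122918344, minus strand) and Mcm7 (chr12:22163129-22163428, minus strand) hold them too and differed by -0.10 and 0.03. Tk1 (chr10:103544728-103545027, minus strand) holds none and differed by 0.52. Each window is written 5′ to 3′ along the gene's strand in GRCr8, with the E2F letters of either strand in capitals.
Gins1: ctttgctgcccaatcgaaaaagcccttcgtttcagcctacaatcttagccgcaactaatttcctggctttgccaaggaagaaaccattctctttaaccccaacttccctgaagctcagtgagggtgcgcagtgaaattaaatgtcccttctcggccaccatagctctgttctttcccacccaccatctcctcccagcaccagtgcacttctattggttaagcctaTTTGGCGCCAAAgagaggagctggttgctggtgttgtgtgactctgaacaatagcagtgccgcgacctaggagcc
Mcm3: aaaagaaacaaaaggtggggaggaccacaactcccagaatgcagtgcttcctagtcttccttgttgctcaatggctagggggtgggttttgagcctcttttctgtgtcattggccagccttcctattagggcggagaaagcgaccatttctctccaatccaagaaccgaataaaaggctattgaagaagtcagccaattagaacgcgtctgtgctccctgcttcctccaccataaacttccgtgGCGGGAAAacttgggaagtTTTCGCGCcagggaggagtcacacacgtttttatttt
Mcm2: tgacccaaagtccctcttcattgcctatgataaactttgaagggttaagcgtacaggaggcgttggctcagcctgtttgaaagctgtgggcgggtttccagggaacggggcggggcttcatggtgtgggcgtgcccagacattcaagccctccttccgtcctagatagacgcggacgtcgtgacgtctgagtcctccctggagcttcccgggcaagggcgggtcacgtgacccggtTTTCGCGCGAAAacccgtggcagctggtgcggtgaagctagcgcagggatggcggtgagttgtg
Mcm7: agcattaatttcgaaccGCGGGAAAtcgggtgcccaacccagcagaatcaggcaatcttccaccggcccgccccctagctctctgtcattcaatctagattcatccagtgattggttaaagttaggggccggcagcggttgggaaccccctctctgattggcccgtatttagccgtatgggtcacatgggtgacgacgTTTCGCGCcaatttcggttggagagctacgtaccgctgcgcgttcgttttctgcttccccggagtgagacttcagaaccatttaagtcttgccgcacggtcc
Tk1: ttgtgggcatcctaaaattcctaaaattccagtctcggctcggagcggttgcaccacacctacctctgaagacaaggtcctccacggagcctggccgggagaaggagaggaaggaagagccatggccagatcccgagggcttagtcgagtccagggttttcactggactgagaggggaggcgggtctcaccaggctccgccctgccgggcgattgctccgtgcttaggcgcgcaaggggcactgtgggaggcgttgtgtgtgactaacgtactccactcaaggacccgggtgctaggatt

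In Gins1 the letters begin 25 and 21 bases before the start, on opposite strands and overlapping, so they read as 1 palindromic run. Mcm2 likewise has overlapping matches, at 14 and 10 bases before the start. Mcm3 has 1 match that spans its start and 1 just after it, and Mcm7 has matches 233 and 52 bases before it. Across the 26 tested members with a window, 9 of the 12 with the letters and 9 of the 14 without them were higher with treatment, with median differences of 0.09 and 0.13. Over all rows 52.4% were higher. The groups did not overlap, higher with treatment, in 3 of the 12 and 5 of the 14, against 11.9% of all rows. Among these 26, members with and without the letters thus had like shares of higher genes, a difference that was not tested. The split leaves out tested members without a window, among them Rrm2 (1.23), E2f1 (0.64) and Cdc6 (-0.61).

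Of the 9 tested genes of origin loading and licensing, 6 had higher and 3 lower means with treatment. Limma called 0 (3 higher and 1 lower at an unadjusted p under 0.05), and differences between them were not tested. Cdc6, the ATPase that with the origin recognition complex brings the helicase to origins, had levels of -4.23, -4.89 and -4.64 in the vehicle rats and -5.52, -5.10 and -4.98 in the treated rats. All 3 treated rats lay below the lowest vehicle rat, by little in treated replicate 3 (log2 difference -0.61, SE 0.22, limma adjusted p = 0.323, n = 3 per group). The probe was close to the array's floor: it was well above background in 3 of 3 vehicle and 2 of 3 treated rats, and the second Cdc6 probe was not well above background on any array. With the normexp background correction the difference of Cdc6 was -0.004 (SE 0.11), a setting that uses the median spot signal, another background correction and an offset of 50 together. Orc6, a subunit of the origin recognition complex, gave log2 difference -0.34, SE 0.19, limma adjusted p = 0.494, with a treated range of -3.91 to -3.46 that overlapped the vehicle range of -3.52 to -2.95. Its difference was -0.19 within slide 1, without treated replicate 3, -0.18 without vehicle replicate 2 and -0.10 with normexp.

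Cdt1, which loads the helicase together with Cdc6, had levels of -5.03, -5.29 and -5.26 in the vehicle rats and -5.11, -3.52 and -4.92 in the treated rats. Treated replicate 2 stood far above the vehicle rats, treated replicate 3 just above them and treated replicate 1 within their range. The difference of 0.67 (SE 0.42, limma adjusted p = 0.532) was 0.17 without treated replicate 2 and 0.38 with normexp. This probe, though well above background on every array, was also close to the floor, with a vehicle mean of -5.19. The lowest levels well above background were -5.98 to -5.49. A second Cdt1 probe, well above background in 1 vehicle and 0 treated rats, differed by 0.10 (SE 0.20). Gmnn, geminin, the inhibitor of Cdt1, had levels of -3.28, -3.47 and -3.50 in the vehicle rats and -3.35, -2.88 and -3.03 in the treated rats. Treated replicates 2 and 3 were above all vehicle rats and treated replicate 1 was within their range (log2 difference 0.33, SE 0.14, limma adjusted p = 0.386).

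Of the subunits of the helicase ring, Mcm3, Mcm4 and Mcm6 had no overlap between groups, and Mcm2 and Mcm7 overlapped. Over all rows, 11.9% were higher and 10.3% lower without overlap. Mcm3 had levels of -0.71, -0.93 and -0.78 in the vehicle rats and -0.41, -0.32 and -0.48 in the treated rats, a 1.32-fold higher mean (log2 difference 0.40, SE 0.09, limma adjusted p = 0.175). All treated rats lay above the vehicle rats, and its 3 other tested probes gave 0.42, 0.30 and 0.08. Mcm4 had levels of -0.63, -0.78 and -0.72 in the vehicle rats and -0.47, -0.48 and -0.58 in the treated rats (log2 difference 0.20, SE 0.07, limma adjusted p = 0.326), again with no overlap. Its second tested probe, dimmer, differed by -0.05 (SE 0.19). Mcm6 had levels of -3.47, -3.65 and -3.46 in the vehicle rats and -3.22, -3.18 and -3.42 in the treated rats, also without overlap although treated replicate 3 lay just above the highest vehicle rat (log2 difference 0.25, SE 0.10, limma adjusted p = 0.348). With normexp the Mcm6 difference was 0.15. In Mcm7, by contrast, the levels were 1.49, 1.43 and 1.44 in the vehicle rats and 1.44, 1.56 and 1.45 in the treated rats, which overlap. Its difference was 0.03 (95% interval -0.13 to 0.19), and a second probe gave 0.05. Mcm2 differed by -0.10 (95% interval -0.31 to 0.12), with -0.15 and 0.01 on its other probes.  Differences between subunits were not tested.

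All 4 genes that turn the loaded ring into a moving helicase had higher means with treatment (median 0.27), and limma called 0 (2 higher and 0 lower at an unadjusted p under 0.05). Gins1, a GINS subunit, had levels of -2.73, -2.65 and -2.81 in the vehicle rats and -2.33, -2.11 and -2.38 in the treated rats. Its treated rats were all above the vehicle rats, at 1.37-fold (log2 difference 0.46, SE 0.09, limma adjusted p = 0.165). Cdc45, which joins GINS and the Mcm ring in the active helicase, had levels of -0.85, -0.91 and -0.93 in the vehicle rats and -0.73, -0.56 and -0.73 in the treated rats, again without overlap (log2 difference 0.22, SE 0.08, limma adjusted p = 0.314). Gins2 overlapped between groups and differed by 0.31 (SE 0.21). This was 0.13 when vehicle replicate 3 was left out or with normexp, and 0.49 when vehicle replicate 1 was left out. Mcm10, which helps start the helicase, differed by 0.03 (95% interval -0.20 to 0.27).

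Of the 4 polymerase and primase genes, 1 had a higher and 3 had a lower mean with treatment (median -0.07). Limma called 0, with 0 at an unadjusted p under 0.05, and the difference from the other groups was not tested. Pola1, the catalytic subunit of the polymerase that works with primase, had levels of -2.48, -2.70 and -2.77 in the vehicle rats and -3.04, -2.78 and -2.90 in the treated rats. Every treated rat was below every vehicle rat, though treated replicate 2 and vehicle replicate 3 were almost level (log2 difference -0.26, SE 0.11, limma adjusted p = 0.391), and the second probe gave -0.12. The Pola1 difference was -0.17 without vehicle replicate 1 and -0.14 with normexp. Prim1, the small primase subunit, differed by -0.08 (95% interval -0.48 to 0.32). Pold1, the catalytic subunit of the lagging strand polymerase, differed by -0.06 (95% interval -0.23 to 0.11) and Pole, that of the leading strand polymerase, by 0.10 (95% interval -0.35 to 0.54). The Pole probe had a treated level of -4.68 in treated replicate 3 against -5.30 and -5.23 in the other treated rats, and its difference was -0.10 within slide 1.

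Pcna, the sliding clamp that holds polymerases on DNA, was the one gene of its functional group with no overlap. Its levels were 1.76, 1.65 and 1.64 in the vehicle rats and 1.90, 1.94 and 1.93 in the treated rats. The treated rats lay close together, 1.18-fold above the vehicle mean (log2 difference 0.24, SE 0.06, limma adjusted p = 0.233), and a second probe gave 0.23. Rfc4, a subunit of the clamp loader, differed by 0.21 (SE 0.12) with overlap, and by 0.10 without treated replicate 1, while its partner subunit Rfc3 differed by 0.02 (95% interval -0.13 to 0.18). Fen1, the flap nuclease of the lagging strand, differed by -0.08 (95% interval -0.29 to 0.13) and Lig1, the ligase that joins the fragments, by 0.08 (95% interval -0.11 to 0.27). Groups overlapped for Rfc3, Rfc4, Fen1 and Lig1.

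Nucleotide supply held the widest contrast between members. Rrm2, the small subunit of ribonucleotide reductase, which makes deoxynucleotides and is known to be abundant in S phase, had levels of 0.96, 0.65 and 0.89 in the vehicle rats and 1.87, 2.52 and 1.81 in the treated rats. Every treated rat was well above every vehicle rat, and treated replicate 2 was the highest. The mean was 2.34-fold higher (log2 difference 1.23, SE 0.21, limma adjusted p = 0.133). Its other 3 probes differed by 0.40 (SE 0.14), 1.53 (SE 0.14) and 1.66 (SE 0.26). With every probe as its own row, where limma called 30 of 41218 probes (0.0728%), the probe at 1.53 was called (adjusted p = 0.0484) and the others were not. The probes at 1.53 and 1.66 were close to the floor, with vehicle means of -5.15 and -5.35, though well above background on every array. The probe at 1.53 was picked out after its values were seen. Rrm1, the large subunit of the same enzyme, had levels of -1.07, -1.10 and -1.14 in the vehicle rats and -1.07, -0.96 and -1.12 in the treated rats. These overlap, the difference was 0.05 (95% interval -0.12 to 0.22), and the other 2 Rrm1 probes gave -0.04 and 0.12.

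Tk1, the cytosolic thymidine kinase that salvages thymidine, had levels of 0.42, 0.37 and 0.37 in the vehicle rats and 0.80, 1.07 and 0.85 in the treated rats. All treated rats were above all vehicle rats, at 1.43-fold (log2 difference 0.52, SE 0.09, limma adjusted p = 0.135), and the second probe gave 0.72 (SE 0.08). Tyms, which makes thymidylate by the other route, differed by -0.15 (95% interval -0.39 to 0.09). Dut, which removes dUTP, differed by -0.01 (95% interval -0.27 to 0.26). The mean of the salvage enzyme was higher and that of the synthesis enzyme was not. Limma called neither (adjusted p = 0.135 and 0.552), and the difference between the 2 genes was not tested.

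Chaf1b, a subunit of the chromatin assembly factor that places histones on new DNA, had levels of -1.59, -1.78 and -1.80 in the vehicle rats and -1.29, -1.09 and -1.57 in the treated rats. Treated replicate 3 lay close to vehicle replicate 1, and the groups did not overlap (log2 difference 0.41, SE 0.14, limma adjusted p = 0.311).

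Of the 4 tested regulators of G1/S, 3 had a higher mean and 1 a lower mean with treatment. Limma called 0 (2 higher and 0 lower at an unadjusted p under 0.05), and differences between them were not tested. E2f1, an activating E2F factor, had levels of -1.46, -1.54 and -1.63 in the vehicle rats and -0.99, -0.86 and -0.85 in the treated rats. The treated rats lay close together, 1.56-fold above the vehicle mean (log2 difference 0.64, SE 0.08, limma adjusted p = 0.0805), the smallest adjusted p among the members. Its other tested probes gave 0.97 (SE 0.17) and 0.71 (SE 0.21). With limma's trended and robust variance, which called 316 rows (0.981%), E2f1 (adjusted p = 0.0356) and Tk1 (adjusted p = 0.0499) were called higher. No other member was called under that setting, and under the remaining settings run no member was called by its brightest probe.

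Ccne1, cyclin E1, an activator of the kinase that starts S phase, had levels of -3.60, -3.79 and -3.61 in the vehicle rats and -3.12, -2.80 and -3.19 in the treated rats. The treated rats were all above the vehicle rats, at 1.55-fold (log2 difference 0.63, SE 0.12, limma adjusted p = 0.159), with 0.33 under normexp. Ccne2, cyclin E2, also had no overlap but differed less (log2 difference 0.27, SE 0.13, limma adjusted p = 0.426), with 0.13 without vehicle replicate 2 or with normexp. Ccnd1, cyclin D1, which links growth signals to the cell cycle, ran the other way with levels of 2.38, 2.58 and 3.12 in the vehicle rats and 2.18, 2.31 and 2.33 in the treated rats. Every treated rat was below every vehicle rat (log2 difference -0.42, SE 0.19, limma adjusted p = 0.416), but vehicle replicate 3 stood above the other vehicle rats, and without it the difference was -0.21. The other Ccnd1 probes gave -0.31 (SE 0.15) and -0.28 (SE 0.15), with vehicle replicate 3 the highest on each.

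**Figure D2:**
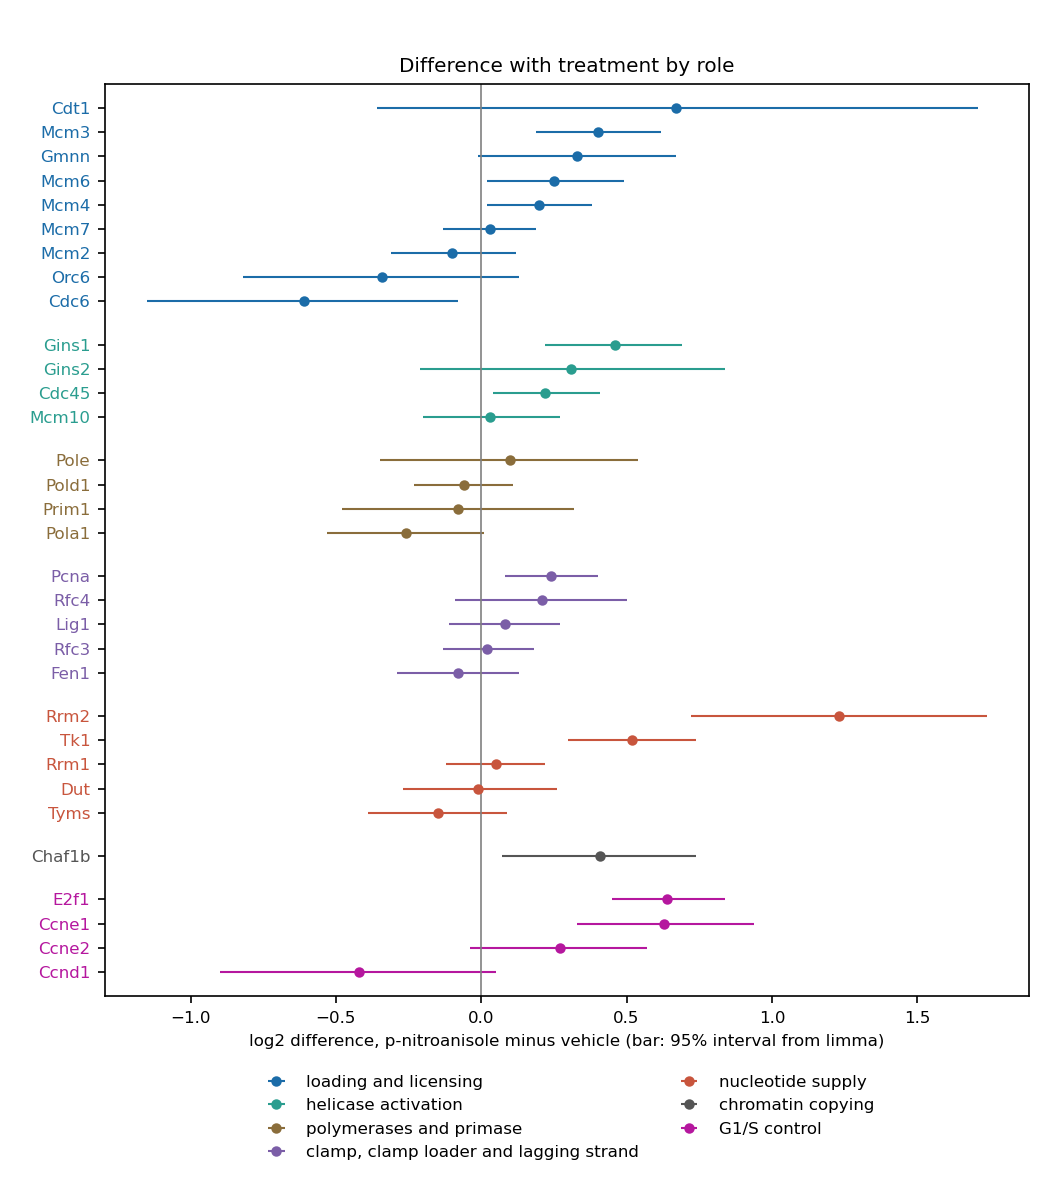
Difference of each tested member between the groups (log2, p-nitroanisole minus vehicle, x axis) with the 95% interval from limma, grouped and coloured by role, n = 3 rats per group. Rrm2 stands at 1.23 and E2f1 at 0.64, the 4 polymerase and primase genes lie between -0.26 and 0.10, and Cdc6 stands at -0.61.

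Of the 15 members with several tested probes, 11 had probes that all differed in the same direction. In the other 4, Mcm2, Mcm4, Rrm1 and Fen1, the probes disagreed in sign. The size varied more than the direction: the Rrm2 probes ranged from 0.40 to 1.66.

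**Figure D3:**
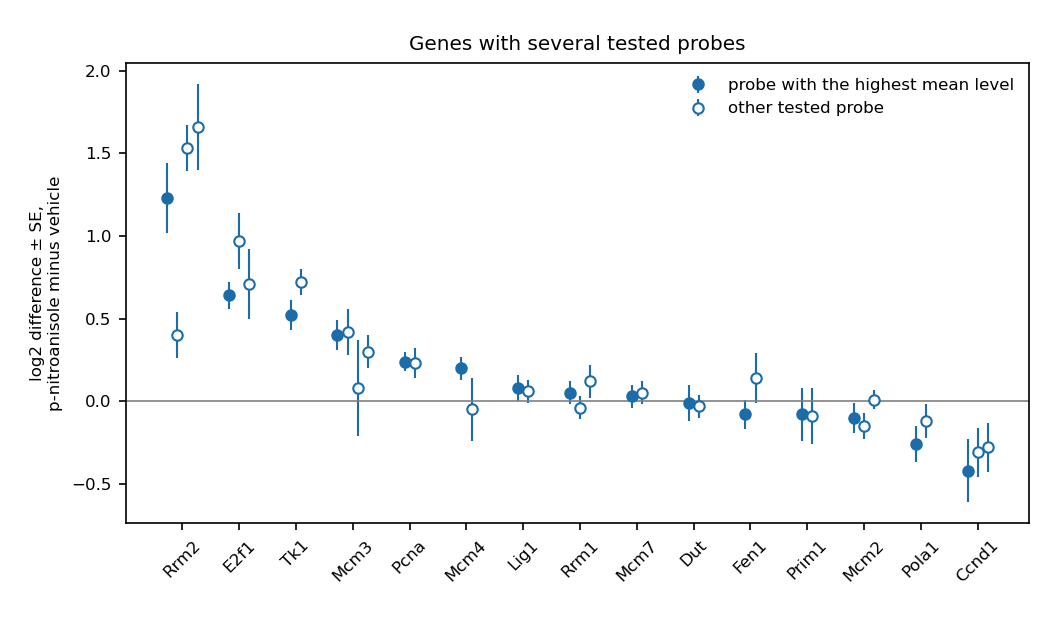
Difference of every tested probe (log2, p-nitroanisole minus vehicle, y axis, ± SE) for the 15 members with several tested probes. Filled points are the probe with the highest mean level, which stands for the gene, and open points the others. All probes of Rrm2, E2f1 and Tk1 lie above 0 and all probes of Ccnd1 below it.

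The members' levels differed between the treated rats. Treated replicate 2 had the highest level of all 6 rats in 18 of the 32 tested members, and in 10 of the 12 members whose treated rats were all above the vehicle rats. How often this array was the highest over all rows was not counted, so this may not be particular to the members. It also had the lowest share of probes well above background (66.43%). The median level of the members relative to the vehicle mean was 0.07, 0.16 and 0.09 on treated replicates 1, 2 and 3, and 0.05, -0.03 and -0.01 on the vehicle arrays. Within slide 1, without treated replicate 3, 21 of 32 members were higher with a median of 0.19 and 0 called by limma (unadjusted p under 0.05 in 11 that were higher and 1 that was lower). When treated replicate 2 was left out the counts were 20 of 32 and a median of 0.17.

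Other genes of the pathway, listed by function in 3 further lists, had medians nearer to 0 than the members, a difference that was not tested. Of 32 tested further replication genes, 22 were higher and 10 lower, with a median of 0.04, and limma called 0 (1 higher and 0 lower at an unadjusted p under 0.05). Prim2, the large primase subunit, differed by -0.36 (SE 0.60), Timeless, of the fork protection complex, by 0.35 (SE 0.18) and Gins3 by 0.30 (SE 0.21). Of 24 further G1/S genes 13 were higher; their median was 0.03 and 0 were called (4 higher and 1 lower at an unadjusted p under 0.05). Ccna2, cyclin A2, which acts in S phase and at entry to mitosis, stood apart in that list at 1.21 (SE 0.15, limma adjusted p = 0.0806), followed by the kinase inhibitor Cdkn1c at -0.42 (SE 0.12), the kinase Cdk6 at 0.35 (SE 0.13) and the inhibitor Cdkn2d at 0.28 (SE 0.11). Of 11 tested genes of repair and checkpoint control in S phase, 8 were higher, with a median of 0.11 and 0 called (3 higher and 1 lower at an unadjusted p under 0.05). The ubiquitin ligase Rad18 was at 0.29 (SE 0.06) and the nuclease Exo1 at 0.26 (SE 0.12).

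Mitosis genes had larger differences than replication genes. All 23 tested were higher, against 52.4% of all rows. Their median was 0.98 and their range 0.29 to 1.41, against a range of -0.61 to 1.23 for the members. Of the 23, Aurkb was well above background in 1 of 3 vehicle and 3 of 3 treated rats. It thus passed the filter only through the treated group. Kif2c, a kinesin of the kinetochore, rose 2.45-fold, Cdc25b, a phosphatase that activates the mitotic kinase, rose 2.28-fold and Prc1, a microtubule bundler of the spindle, rose 2.25-fold (limma adjusted p = 0.0449, 0.0404 and 0.0404). The Kif2c probe was close to the floor in the vehicle rats, with a mean of -5.41, though well above background on every array. Of the members, Rrm2 alone had a difference above the median of the mitosis genes. Among treated replicates 1, 2 and 3 the mitosis list had medians of 0.84, 1.06 and 0.97. The difference between the lists was not tested, since genes are not independent replicates.

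**Figure D4:**
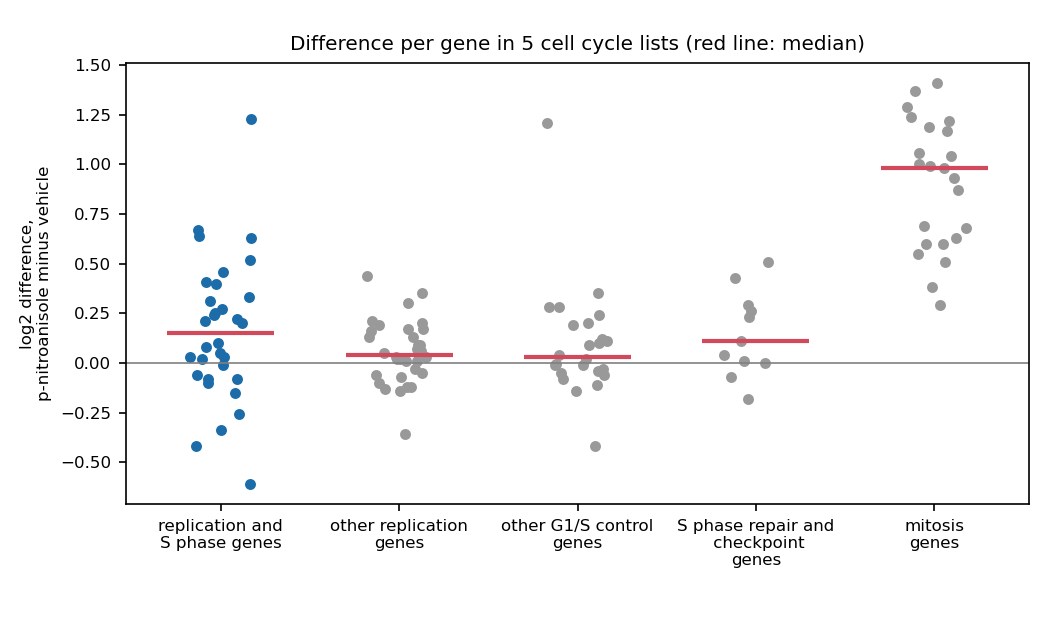
Difference of each tested gene (log2, p-nitroanisole minus vehicle, y axis) in the member list and 4 further lists, with the median as a red line. The medians are 0.15 for the members, 0.04, 0.03 and 0.11 for the other replication, G1/S and repair lists, and 0.98 for the mitosis genes.

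Markers of red cell precursors and of neutrophils differed in the same comparison. In all 8 tested red cell precursor markers every treated rat lay above every vehicle rat, against 11.9% of all rows. Limma called Alas2, Hba-a3 and Hbb-b1, where 0.0745% of all rows were called. Summed over the 8 (units of the 75th percentile), intensity was 332 to 412 in vehicle and 843 to 991 in treated rats. The sum was mostly that of the globin genes Hba-a3 and Hbb-b1, with vehicle mean levels of 7.66 and 7.42. The next brightest, Alas2, had a vehicle mean of 0.4. Rhag was not tested, and Hemgn was not well above background in 1 vehicle rat. The 3 tested neutrophil markers were higher without overlap too, with S100a8 called. Their summed intensity was 0.433 to 0.583 in the vehicle and 1.27 to 1.37 in the treated rats. Elane, Ltf and Ngp were not well above background on all 3 arrays of either group. On treated replicates 1, 2 and 3 the red cell list had medians of 1.25, 1.51 and 1.83, and the members 0.07, 0.16 and 0.09. Treated replicate 3 was the only array on slide 2, so rat and slide cannot be told apart there. The 8 T and NK cell markers all had lower means, with overlapping sums (2.65 to 2.77 and 2.07 to 2.66) and 0 called. Of these, 1 (Gzmb) was lower without overlap between groups, against 10.3% of all rows. Of 7 macrophage markers 5 had lower means (summed 17.5 to 22.1 and 13.1 to 18.6), with 0 called. Among them Cd68 was lower and Mrc1 (0.52) higher without overlap. The part of these cells in the levels of the replication genes was not tested.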

How the data were processed

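Cy3-labelled RNA of each of 6 rats was hybridised to its own 1-colour Agilent array, per the labels' protocols. Intensity values per spot were deposited as output of Feature Extraction, version 10.7.1.1 per the file headers (10.7 in the submitters' processing notes). The authors' series matrix equals the processed intensity divided by 1 constant per array, with no centring of genes (column medians 0.1049 to 0.1112). Here the processed intensity was floored at 1 and scaled to the 75th percentile of an array's non-control probes, and log2 was taken. Spots marked as non-uniform (0 to 4 per array) were left out. Probes were named by accession from RefSeq's GRCr8 gene table (28206 of 61537), and because the array was annotated on another build no probe coordinates are given.

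Testing required a signal well above background on all arrays of 1 group or the other, and the brightest tested probe stood for a named gene. The 32196 rows were compared between groups with limma 3.58.1 in R 4.3.3 (lmFit, eBayes, two-sided) with Benjamini-Hochberg adjustment at 0.05, and intervals are limma's 95% intervals. The procedure was tested on simulated data. Replicates are separate animals per the labels, and 3 arrays per group limit the precision. All members are named, and of each other list the called genes or up to 4 with the largest differences (some are not reported here), while marker genes beyond the called ones were chosen after their values were seen. The members and lists were chosen with earlier results of these data known, so their counts and medians are descriptions.

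Alternatives changed the scaling (quantile, median or the series matrix), the filter, the choice of probes, the variance model (trended and robust), the block (slide or replicate number) and the threshold (0.01), and left out single arrays. A planned normexp correction of mean spot signals was not run. It was replaced, after the files were seen, by normexp on median spot signals (offset 50).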

Additional observations from a re-analysis of the deposited data

How the results depend on the processing

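Against 24 rows called over the whole table, limma called 82 with normexp, 2 with no filter on dim probes, 316 with trended robust variance, 9 with the slide as a block or within slide 1, 1 with the replicate block and 0 at a threshold of 0.01. Leaving out each array gave 0 to 9 rows called. Other scalings, the series matrix, probes above background on all 6 arrays and every probe as its own row gave 19 to 33. By their brightest probe 0 members were called in these settings except with trended robust variance, which called 2, E2f1 and Tk1; with every probe as its own row 1 dimmer probe of Rrm2 was called. Between 18 and 23 members were higher under every setting. Over all rows at an unadjusted p under 0.05, 2474 were higher and 1853 lower, against 1960 and 2467 with quantile scaling and 1619 and 3100 with median scaling. With each of 2 arrays left out in turn no row was called: vehicle replicate 2 (3261 rows at an unadjusted p under 0.05) and treated replicate 1 (3720). Over all rows, same-numbered rats did not deviate together (r = -0.0088, 0.0397 and -0.0102) more than other pairs (r from -0.0678 to 0.0647). Whether the replicate numbers pair rats in a part of the genes was not tested.

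Of the 32 tested members, 25 kept the sign of their difference in every setting run. Among the others, all with differences of at most 0.10 in size, Mcm7 was -0.03 with median scaling and -0.05 with normexp, Mcm10 was -0.04 with quantile scaling and -0.02 with median scaling, and Pole was -0.01 with quantile scaling and -0.10 with the slide as a block or within slide 1. Rfc3 was -0.03 and Rrm1 -0.01 with median scaling, and Dut was 0.05 with normexp. Leaving out 1 array gave ranges of -0.01 to 0.05 for Mcm7, -0.05 to 0.08 for Mcm10, -0.17 to 0.09 for Prim1, -0.10 to 0.21 for Pole, -0.0022 to 0.05 for Rfc3 and -0.11 to 0.08 for Dut. The cause was not tested. Cdc6 was not well above background on 1 treated array, which limits its value.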
